A study of Mus musculus with 8 samples.

Results

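Transcript levels of 10 genes at the output of canonical Wnt signaling were examined in tumor endothelial cells (TECs) of control and endFoxf1+/- mice. These were the negative regulators Axin2, Nkd1, Nkd2, Apcdd1, Notum, Znrf3 and Rnf43, the transcription factors Lef1 and Tcf7, and the cell cycle gene Ccnd1, picked by name as direct beta-catenin targets out of 33641 gene symbols. The cells were CD45-CD31+ cells, the flow cytometry gate for endothelium, sorted from Lewis lung carcinoma (LLC) tumors. Mice aged 6 to 8 weeks had received mCherry-labelled LLC cells, a mouse lung tumor line, in the left lung, and their tumors were dissected out 21 days later. There were 4 control libraries (C1 to C4) and 4 endFoxf1+/- libraries (H1 to H4), each with its own sample label. No label ties a library to an animal, so the spread between libraries may be partly technical.

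In endFoxf1+/- mice (Pdgfb-iCreER;Foxf1 fl/+), oral tamoxifen activates a Cre recombinase made from the Pdgfb promoter, which removes exon 1, with the DNA-binding domain, from 1 Foxf1 allele in endothelial cells. The other allele stays intact in every cell. The labels give the other group as control only; the methods describe littermates with either the floxed allele (Foxf1 fl/+) or the Cre transgene (Pdgfb-Cre tg/+) and, for the tumor model, C57Bl/6 wild-type mice, and which of these gave each library is not stated. The comparison asks how losing 1 copy of this endothelial transcription factor goes with the readout of Wnt/beta-catenin signaling in tumor vessels.

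When a Wnt ligand binds a Frizzled receptor with its LRP co-receptor, beta-catenin escapes destruction, enters the nucleus and switches on target genes through TCF/LEF factors. Many of the earliest targets are brakes on the same pathway, so their transcripts are widely read as a gauge of pathway activity. AXIN2 rebuilds the destruction complex, NKD1 and NKD2 bind Dishevelled, ZNRF3 and RNF43 remove Frizzled from the cell surface, NOTUM strips the lipid from Wnt ligands and APCDD1 binds Wnt and LRP at the membrane. In endothelium the pathway is best known for forming and keeping the blood-brain and blood-retina barriers.

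The sequences just upstream of the RefSeq gene starts of the genes whose groups separated most clearly are given here, because TCF/LEF factors act on such regulatory DNA. RefSeq windows (GRCm38.p6) were found for 6 of the 10 genes, Axin2, Nkd1, Nkd2, Lef1, Tcf7 and Rnf43, with 11 windows of 250 bases in all. The core to which TCF/LEF factors bind, CTTTG followed by AT, TT, AA or TA, was searched on both strands. It was found in 1 of these 11 windows, at an internal start of Lef1, against 14.8% (4874) of 32851 windows of all genes. The forkhead core, TGTTTA followed by C or T, was found in 0 of the 11 windows and in 7.10% of all windows. A match describes letters in these windows only. The Nkd2 window (chr13:73847632-73847881, minus strand) lies before the gene, the Nkd1 window (chr8:88527383-88527632, plus strand) in an intron of a longer GENCODE transcript, and the Lef1 window (chr3:131156044-131156293, plus strand) in an intron. Capitals mark the match in Lef1, which is CTTTGTA read on the other strand and begins 147 bases before that start. Each is written 5′ to 3′ on the strand of its gene.
Nkd2: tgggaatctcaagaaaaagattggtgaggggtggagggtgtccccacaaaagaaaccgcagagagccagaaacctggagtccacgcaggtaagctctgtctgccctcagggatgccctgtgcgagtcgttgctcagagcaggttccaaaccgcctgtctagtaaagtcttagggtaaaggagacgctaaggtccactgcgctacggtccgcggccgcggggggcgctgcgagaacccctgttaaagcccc
Nkd1: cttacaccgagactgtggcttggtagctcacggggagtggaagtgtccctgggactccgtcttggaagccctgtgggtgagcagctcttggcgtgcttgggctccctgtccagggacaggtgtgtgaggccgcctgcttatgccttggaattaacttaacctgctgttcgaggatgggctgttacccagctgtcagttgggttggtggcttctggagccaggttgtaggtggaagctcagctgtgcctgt
Lef1: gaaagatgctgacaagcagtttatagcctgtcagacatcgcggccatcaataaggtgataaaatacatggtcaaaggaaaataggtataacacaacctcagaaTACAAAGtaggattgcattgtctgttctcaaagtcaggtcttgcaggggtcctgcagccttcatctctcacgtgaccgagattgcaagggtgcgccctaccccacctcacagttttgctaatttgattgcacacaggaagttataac

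Levels are TPM, a measure scaled for transcript length and library total, and each library summed to 1000000. TPM carry no read number, so depth is unknown and precision rests on the spread between libraries. Foxf1, the targeted gene, had a TPM of 213, 285, 296 and 331 in controls and of 177, 203, 14.04 and 105 in H1 to H4, so that the groups did not overlap. An exact permutation test of the mean log2(TPM + 1), two-sided, gave p = 0.0286, which is the lowest that 4 libraries against 4 permit. Library H3 stood apart: the geometric mean of 20 endothelial markers was 5.83% of the control mean in H3 and 62.9% in H4, against 107% and 110% in H1 and H2 and 86.2 to 107% in controls. In H3 the endothelial markers summed to 839 TPM and the myeloid markers to 8920 TPM, against 16841 and 2629 TPM in H1, so the markers of H3 go against its label as sorted CD45-CD31+ cells. In each of the other libraries the endothelial sum was above the myeloid sum. The epithelial sum was above the endothelial sum in C3 (30671 against 14385 TPM), H3 (1558 against 839 TPM) and H4 (23107 against 8862 TPM). By the same geometric mean, other lists differed in all endFoxf1+/- libraries: myeloid markers were at 149, 175, 1135 and 136% of control in H1 to H4 (55.9 to 128% in controls, all 12 markers with a higher mean), proliferation markers at 188, 174, 427 and 128%, and platelet and erythroid markers at 54.5, 64.4, 25.7 and 47.1% (69.9 to 159% in controls, all 10 with a lower mean). By summed TPM the myeloid list overlapped between the groups. It was at 1465 to 5128 TPM in controls (highest in C3) and at 2629, 1882, 8920 and 4700 in H1 to H4. T cell markers were at 188% in H3. Epithelial markers were at 71.1, 29.2, 40.0 and 173% in H1 to H4, against 62.8 to 203% in controls, so H2 and H3 lay below every control. The part of these lists in the results was not tested. The median correlation with the other libraries was 0.795 for H3, 0.892 for H4 and at least 0.958 for the others. The gene Gm20594 held 21.8% of all TPM in H4, against 5.11 to 11.3% in the other libraries. Less of the fixed total was therefore left for other genes in H4, and the part of this in its values was not tested. In sorted bulk RNA, fewer endothelial cells and less RNA per endothelial cell cannot be told apart, and the part of cell makeup in the values of H3 was not tested. The main results are therefore given with and without H3.

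**Figure D1:**
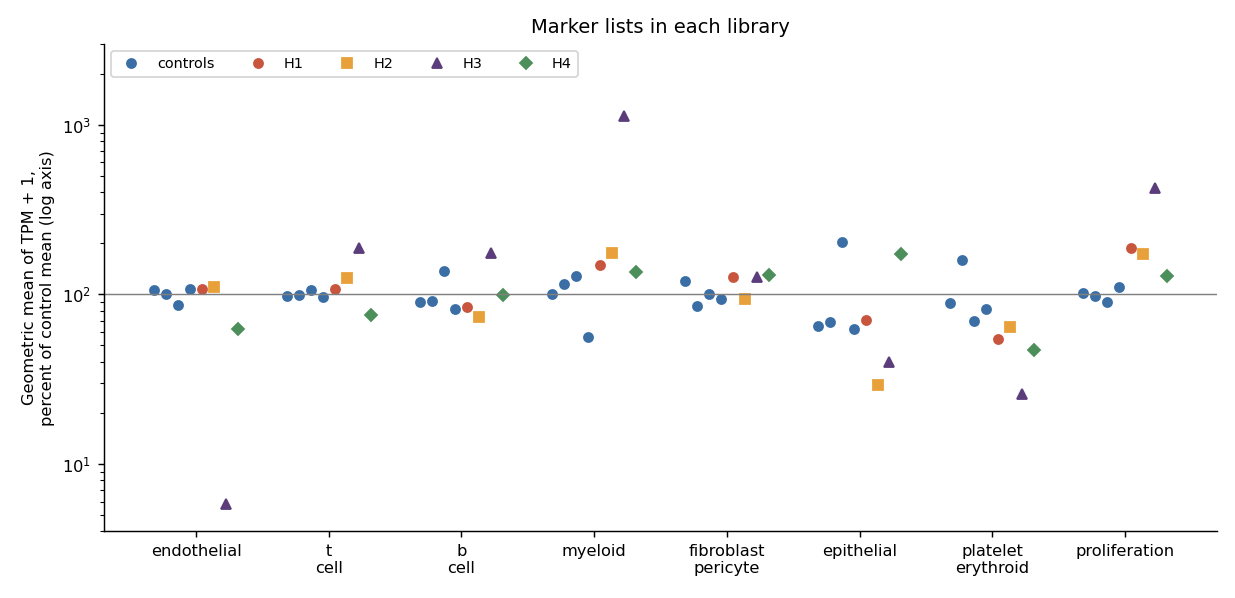
Marker lists of 8 cell types or states in each library, as the geometric mean of TPM + 1 in percent of the control mean (log axis). Blue points are the 4 controls and coloured shapes the 4 endFoxf1+/- libraries. H3 lies at 5.83% for endothelial markers and at 1135% for myeloid markers, while H1 and H2 lie within or close to the controls for the endothelial list.

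In controls the 10 genes covered a wide range of TPM. Ccnd1 (mean 161 ± 16.6 SD, n = 4) and Nkd1 (133 ± 28.3) were highest and their control ranges overlapped. Tcf7 (24.2 ± 3.15), Nkd2 (15.3 ± 5.71), Axin2 (8.88 ± 2.90) and Znrf3 (8.26 ± 0.826) followed, each overlapping with the next. Apcdd1 (2.22 ± 0.583) and Lef1 (2.17 ± 0.427) were close to each other, and Rnf43 (0.697 ± 0.298) and Notum (0.177 ± 0.120) were near the bottom of the scale. Nkd1 was therefore the most abundant of the feedback inhibitors, above Axin2, the usual reporter of the pathway, in every control. A filter that asked for 1 TPM or more in 4 or more libraries kept 8 of the 10 genes and 14964 genes in all. Rnf43 and Notum did not pass and are described without a model.

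**Figure D2:**
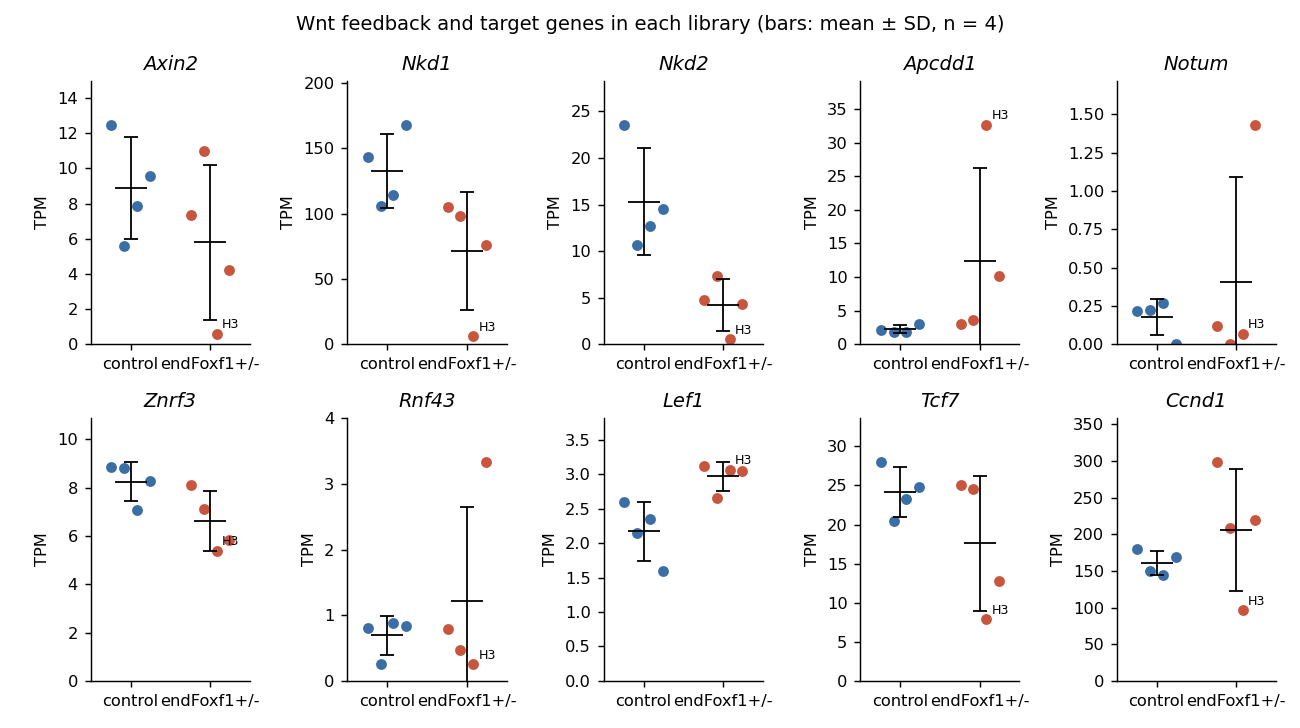
TPM of each of the 10 genes in the 4 control (blue) and 4 endFoxf1+/- (red) libraries. Points are libraries in label order, horizontal lines are means and error bars SD (n = 4), which stop at 0 where the SD exceeds the mean. Nkd1 and Nkd2 are lower and Lef1 higher in every endFoxf1+/- library than in any control, and H3 is the lowest point for Axin2, Nkd1, Nkd2, Tcf7, Znrf3 and Ccnd1 and the highest for Apcdd1.

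Across all genes, limma called 0 of 14964 at an adjusted p under 0.05 (0.0%), so none of these genes passed; their adjusted p were 0.790 to 0.839. At an unadjusted p under 0.05, 414 genes were lower (2.77%) and 422 higher (2.82%), among them Nkd2 (lower) and Apcdd1 (higher). Of the 8 genes tested, 5 had a lower and 3 a higher mean, with a median log2 fold change on the log2(TPM + 1) scale of -0.43. The median of all genes tested was -0.17, so values relative to that shift are also given where they matter. Without H3 the medians were -0.23 for the 8 genes and 0.01 for all genes. The groups did not overlap for 2 of the 8 genes in the lower direction (Nkd1 and Nkd2), against 2.31% of all genes tested, and for 1 in the higher direction (Lef1), against 2.73% of all genes. Axin2, Nkd1, Nkd2 and Lef1 were also named by the study from these samples, so they are not an independent choice of genes.

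Among the feedback inhibitors, Nkd2 separated the groups most clearly. NKD2 is a Dishevelled-binding protein of the Naked cuticle family, encoded at chr13:73818534-73847631 (GRCm38, minus strand). Its TPM was 23.6, 10.6, 12.7 and 14.5 in controls and 4.71, 7.29, 0.564 and 4.35 in H1 to H4. All 4 endFoxf1+/- libraries lay below the lowest control, at 30.7, 47.6, 3.68 and 28.4% of the control mean. The log2 fold change was -1.81 (SE 0.50, limma unadjusted p = 0.00522, adjusted p = 0.790) or -1.64 relative to the median of all genes, and the exact permutation test gave p = 0.0286. Leaving out H3 left a difference of -1.31 with no overlap (exact p = 0.0286), and H1 and H2 alone, with endothelial markers at 107 and 110% of control, differed from controls by -1.19 (exact p = 0.0667, the smallest for 4 against 2 libraries). With the endothelial marker level of each library as a covariate, limma gave -1.23 (SE 0.28, adjusted p = 0.510).

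Nkd1, the paralog of Nkd2 (chr8:88521354-88594884, plus strand), had a TPM of 143, 106, 114 and 168 in controls and of 105, 98.4, 6.08 and 75.7 in H1 to H4. The groups did not overlap (exact p = 0.0286), but C2 and H1 were less than 1 TPM apart. The size of the difference rested on H3: the log2 fold change was -1.43 (SE 0.77, adjusted p = 0.790 by limma) with it and -0.50 without it (exact p = 0.0571), and -0.38 (SE 0.17) with the endothelial marker level as a covariate. H1 and H2 were at 79.4 and 74.1% of the control mean, close to the lower edge of the controls. In these libraries the difference was smaller for Nkd1 than for Nkd2, which were at 79.4 and 30.7% of control in H1 and at 74.1 and 47.6% in H2.

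The ratio of the paralogs was compared within each library, where library content affects both genes. Nkd2 was at 16.5, 9.99, 11.1 and 8.61% of Nkd1 in controls and at 4.46, 7.41, 9.27 and 5.75% in H1 to H4. H3 lay inside the control range, so the groups overlapped (log2 difference -0.79, exact p = 0.0571), and without H3 all endFoxf1+/- libraries were below all controls (-0.96, exact p = 0.0286). This ratio is 1 of 5 computed, all chosen after the data were seen, with p not adjusted for the choice. Another, Axin2 to Nkd1, overlapped with H3 (log2 difference 0.32, exact p = 0.286) and without it (0.22, exact p = 0.514).

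Axin2 (chr11:108920349-108950783, plus strand), the scaffold of the destruction complex and the usual pathway reporter, did not separate the groups. Its TPM was 12.5, 5.61, 7.84 and 9.59 in controls and 7.37, 11.0, 0.607 and 4.21 in H1 to H4. H1 and H2 lay inside the control range, and only H3 and H4, the libraries with low endothelial markers, lay below it. The log2 fold change was -0.83 (SE 0.57, adjusted p = 0.790 by limma) and the exact test gave p = 0.286; without H3 it was -0.25 (exact p = 0.571), and over H1 and H2 alone it was 0.07.

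Of the membrane ubiquitin ligases, Znrf3 had a TPM of 8.84, 8.82, 7.08 and 8.29 in controls and of 8.13, 7.12, 5.39 and 5.83 in H1 to H4. H3 and H4 lay below the controls and H1 and H2 within them (log2 fold change -0.29, exact p = 0.0857; -0.21 without H3). Its relative Rnf43 was under 1 TPM in every library other than H4, at 0.252 to 0.888 in controls and at 0.794, 0.476, 0.252 and 3.34 in H1 to H4. Notum, the secreted Wnt deacylase, was listed at 0 in C4 and H2, reached 0.266 in the other controls and was 1.43 in H4. Neither low gene separated the groups (mean log2 differences of 0.22 and 0.16, exact p = 0.857 for Rnf43 and 0.943 for Notum), and H4 alone held the high values of both.

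Apcdd1, a membrane-bound inhibitor of Wnt and BMP signaling, was the only inhibitor tested by the model that had a higher mean in endFoxf1+/- libraries. Its TPM was 2.15, 1.82, 1.84 and 3.07 in controls and 3.02, 3.65, 32.7 and 10.2 in H1 to H4. H2, H3 and H4 lay above every control and H1 did not. The log2 fold change was 1.52 (SE 0.61, unadjusted p = 0.0330, adjusted p = 0.790 by limma; exact p = 0.0571), and 0.90 without H3 (exact p = 0.0571). Over H1 and H2 alone it was 0.44 (exact p = 0.200), and with array weights 0.48. With the endothelial marker level as a covariate limma gave 0.78 (SE 0.30, adjusted p = 0.652). The fibroblast and pericyte list was at 126, 94.5, 126 and 131% of control in H1 to H4 (85.7 to 120% in controls), with 6 markers lower and 6 higher, and its sum of 797 TPM in H3 was mostly Dcn (533 TPM). The CD31 gate is meant to leave such cells out, but this list also summed to 118 to 163 TPM in controls. The part of such cells in the Apcdd1 level was not tested.

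The TCF/LEF factors differed from each other. Lef1 (chr3:131110471-131224356, plus strand), which is both a partner and a target of beta-catenin, had a TPM of 2.60, 2.14, 2.34 and 1.60 in controls and of 3.13, 2.66, 3.06 and 3.04 in H1 to H4. Every endFoxf1+/- library lay above every control, by little: C1 and H2 were less than 0.1 TPM apart. The log2 fold change was 0.33 (SE 0.24, adjusted p = 0.790 by limma) or 0.50 relative to the median of all genes, with an exact p of 0.0286. Without H3 the difference was 0.32, still with no overlap (exact p = 0.0571), but after quantile normalization the groups overlapped. The level in H3 and H4 was similar to that in H1 although their endothelial markers were low. T cells also express Lef1, and the T cell list was at 107, 125, 188 and 76.0% of control in H1 to H4. None of its 14 markers was at 0 throughout, and summed TPM was 107 to 119 in controls and 87.3 to 129 in endFoxf1+/- libraries. The CD45 gate is meant to remove T cells, but these transcripts were present in every library. The part of T cells in the Lef1 level was not tested.

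Tcf7 (chr11:52252371-52283014, minus strand), which encodes TCF1, had a TPM of 28.0, 20.5, 23.3 and 24.8 in controls and of 25.1, 24.6, 7.89 and 12.8 in H1 to H4. As for Axin2, H1 and H2 were within the controls and H3 and H4 below them (log2 fold change -0.56, SE 0.36, adjusted p = 0.790 by limma; exact p = 0.286). Without H3 the difference was -0.26, and over H1 and H2 alone 0.05. Within libraries, Lef1 was at 9.28, 10.5, 10.1 and 6.45% of Tcf7 in controls and at 12.4, 10.8, 38.8 and 23.8% in H1 to H4. This ratio was higher in all endFoxf1+/- libraries (log2 difference 1.08, exact p = 0.0286) and without H3 (0.73, exact p = 0.0286), although C2 and H2 were close.

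Ccnd1 (chr7:144929931-144939925, minus strand) encodes cyclin D1, which drives entry into S phase with CDK4 and CDK6. Its TPM was 180, 150, 144 and 169 in controls and 299, 208, 96.7 and 219 in H1 to H4. H1, H2 and H4 were above all controls and H3 was below them, so the groups overlapped (log2 fold change 0.25, SE 0.33, adjusted p = 0.839 by limma; exact p = 0.543). Without H3 the difference was 0.58 with no overlap (exact p = 0.0286), and over H1 and H2 alone it was 0.64. With 1 library left out in turn it was 0.04 to 0.58, lowest without H1. With the endothelial marker level as a covariate limma gave 0.62 (SE 0.16, adjusted p = 0.539). Proliferation markers were at 188, 174, 427 and 128% of control in H1 to H4, against 90.3 to 110% in controls. All 10 markers had a higher mean, and their summed TPM was 100 to 125 in controls and 145 to 522 in endFoxf1+/- libraries; their part in the Ccnd1 level was not tested. An exon of Ccnd1 overlaps one of Oraov1 on the opposite strand, and without strand their reads cannot be told apart; Oraov1 was at 23.1 to 26.4 TPM in controls and at 25.5, 25.1, 9.49 and 135 in H1 to H4.

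Ccnd1 was also compared with the other D cyclins. Relative to Ccnd3 it was at 115, 136, 124 and 108% in controls and at 244, 180, 182 and 274% in H1 to H4, higher in all 4 endFoxf1+/- libraries (log2 difference 0.84, exact p = 0.0286; 0.93 without H3). H3 was no exception here. Relative to Ccnd2 the groups overlapped because of H3 (0.55, exact p = 0.171) and separated without it (0.81, exact p = 0.0286). The mean of Ccnd3 was 134 ± 24.9 in controls and 92.7 ± 32.3 in endFoxf1+/- libraries, and that of Ccnd2 was 23.4 ± 6.18 and 18.6 ± 2.21 (SD, n = 4).

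**Figure D3:**
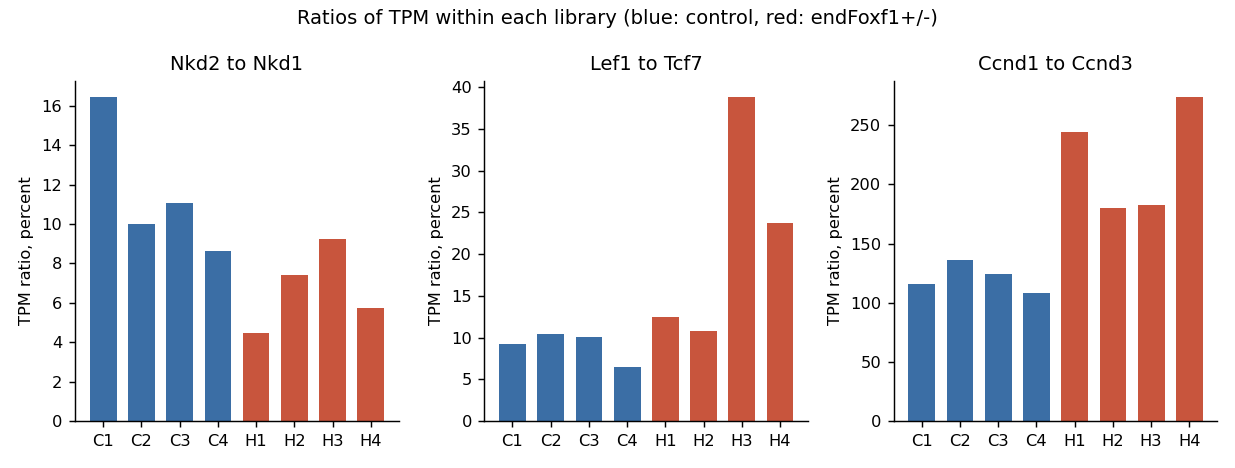
TPM of one gene in percent of another in the same library, for Nkd2 to Nkd1, Lef1 to Tcf7 and Ccnd1 to Ccnd3, with 1 bar per library (blue, controls C1 to C4; red, endFoxf1+/- H1 to H4). Ccnd1 is at 108 to 136% of Ccnd3 in controls and at 180 to 274% in endFoxf1+/- libraries, and Nkd2 is at 9.27% of Nkd1 in H3, inside the control range.

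Each gene was then set against the endothelial transcripts of its own library, as log2(TPM + 1) minus the mean of the 20 endothelial markers. On this scale 1 of the 10 genes, Ccnd1, did not overlap between the groups: it was higher in all endFoxf1+/- libraries by 1.38 (exact p = 0.0286) and, without H3, by 0.71 (exact p = 0.0286). Leaving out 1 control gave 1.34 to 1.41 (exact p = 0.0571 to 0.0857, with no overlap). Of all genes tested, 7.14% were higher with no overlap on this scale, and 0.0535% (8 genes) lower. None of the 10 genes was lower with no overlap. Nkd2 came closest, with H1, H2 and H4 below all controls and H3 above them (difference -0.68, exact p = 0.257). Its difference was -1.17 without H3 (exact p = 0.0286) and -0.39 without H1 (exact p = 0.514), the ends of the range with 1 library left out.

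The place of H3 for Nkd2 depended on the pseudocount of 1, which lifts a TPM of 0.564. Taken as plain percentages of the endothelial geometric mean, a calculation added after the data were seen, Nkd2 was at 4.89, 2.30, 3.22 and 2.96% in controls and at 0.963, 1.45, 2.26 and 1.52% in H1 to H4. All endFoxf1+/- libraries were then below all controls (log2 difference -1.12, exact p = 0.0286), with H3 just under the lowest control. With a pseudocount of 0.1 the difference was -1.05 and with one of 5 it was -0.10 (exact p = 0.0571 and 0.943), in both cases with overlap, so the separation with H3 included rests on leaving out the pseudocount. Nkd1 was at 29.7, 23.0, 29.1 and 34.3% in controls and at 21.6, 19.6, 24.4 and 26.4% in H1 to H4, with H3 and H4 inside the control range (-0.33, exact p = 0.0857; -0.30, exact p = 0.143, with the pseudocount of 1). Axin2 was at 1.21 to 2.59% in controls and at 1.47 to 2.44% in endFoxf1+/- libraries, which lay wholly within that range (-0.02, exact p = 1.0). With the pseudocount of 1 the difference for Axin2 was 0.30 (exact p = 0.629), with H3 above all controls. Ccnd1 was at 32.5 to 37.3% in controls and at 61.2, 41.4, 388 and 76.4% in H1 to H4.

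The other genes overlapped relative to endothelial markers, and H3 set the size of their differences. With and without H3 these were 2.65 and 1.04 for Apcdd1, 1.46 and 0.46 for Lef1, 0.84 and -0.07 for Znrf3 and 0.56 and -0.12 for Tcf7. They were 1.35 and 0.57 for Rnf43 and 1.28 and 0.39 for Notum, both under 1 TPM in nearly all libraries. Foxf1 itself was lower by 0.55 on this scale (exact p = 0.0571) and by 0.69 without H3.

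**Figure D4:**
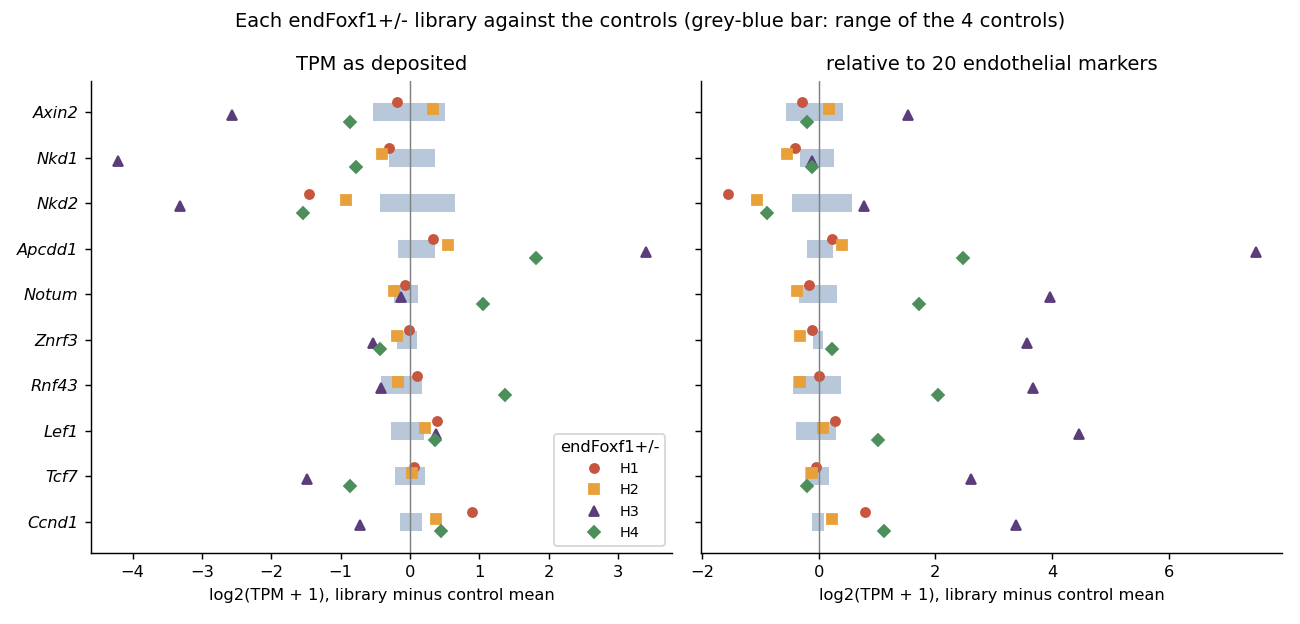
Difference of each endFoxf1+/- library (coloured shapes) from the control mean in log2(TPM + 1), as deposited (left) and relative to the mean of 20 endothelial markers of the same library (right); bars are the range of the 4 controls. On the left H3 is far below the controls for Nkd1, Nkd2 and Axin2; on the right H3 lies above or within them for all 10 genes, and H1, H2 and H4 stay below the controls for Nkd2 and above them for Ccnd1.

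The rest of the pathway was described from 7 lists of genes by role, in none of which a gene passed adjustment (limma, lowest adjusted p = 0.790). For reference, 10182 of all 14964 genes had a lower mean, and 2.31% were lower and 2.73% higher with no overlap; without H3 the median of all genes was 0.01. Among R-spondins and their receptors, 1 of 4 tested genes had groups without overlap: Rspo3, the ligand that protects Frizzled from ZNRF3 and RNF43, was at 6.09, 6.06, 7.48 and 7.62 TPM in controls and at 2.20, 3.62, 0.291 and 2.92 in H1 to H4. Its log2 fold change was -1.40 (SE 0.40, unadjusted p = 0.00606, adjusted p = 0.790 by limma; exact p = 0.0286), and -1.01 without H3. Relative to endothelial markers Rspo3 overlapped with H3 (-0.27, exact p = 0.714) and not without it (-0.87, exact p = 0.0286). Rspo1 (-0.36) and the receptor Lgr4 (0.49) overlapped between the groups. The median of the 4 genes was -0.14, and 0.06 without H3.

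Of 13 Wnt receptor and co-receptor genes tested, 11 had a lower mean (median -0.41 against -0.17 for all genes) and 0 separated the groups; without H3 the median was -0.02. The genes of smallest p, the receptor Fzd4 (-1.02), its co-receptor Tspan12 (-1.17) and Reck (-0.97), had overlapping groups and were at -0.16, -0.18 and -0.53 without H3. In the beta-catenin core 12 of 16 genes had a lower mean (median -0.16), and 7 of 15 without H3 (median 0.08). Dvl2, which relays the signal from Frizzled, was below all controls in every endFoxf1+/- library (7.10 ± 1.06 against 4.77 ± 1.40 TPM; -0.52, and -0.61 without H3), whereas the kinase gene Gsk3a (-0.56, and -0.33 without H3) and Apc2 (0.51) overlapped. Among 14 TCF cofactors 9 had a lower mean (median -0.15), and 6 without H3 (median 0.04), with the corepressor Ctbp1 lower in all endFoxf1+/- libraries (45.8 ± 2.13 against 33.9 ± 9.71 TPM; -0.47, and -0.26 without H3) and Bcl9 (-0.46) and Tle4 (-0.57, and -0.19 without H3) overlapping.

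Of the other beta-catenin targets, 14 of 19 tested genes had a higher mean (median 0.52, and 0.25 without H3). Over H1 and H2 alone 8 of 17 had a lower mean and the median was 0.12, against 0.14 for all genes. Fosl1, Twist1 and Gja1 were higher in every endFoxf1+/- library than in any control, with log2 fold changes of 1.15, 1.47 and 0.78 (0.50, 0.85 and 0.65 without H3), and Jun was lower (-0.60, and -0.40 without H3). H3 held the highest Fosl1 (76.8 TPM) and Twist1 (16.5 TPM). Of 8 targets known from barrier endothelium 6 had a lower mean (median -0.38, and -0.05 without H3). Cldn5, a tight junction gene, was lower in every endFoxf1+/- library (1200 ± 220 against 516 ± 443 TPM; -1.93, and -1.07 without H3), Slc2a1, the glucose transporter gene, was higher (1.15, and 0.68 without H3), and Sox17 (-1.31, and -0.32 without H3) overlapped. In the D cyclin axis 6 of 8 genes had a lower mean (median -0.13, and -0.10 without H3); Cdk4, the partner of cyclin D1, was 0.43 higher, and 0.20 without H3, with overlapping groups.

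**Figure D5:**
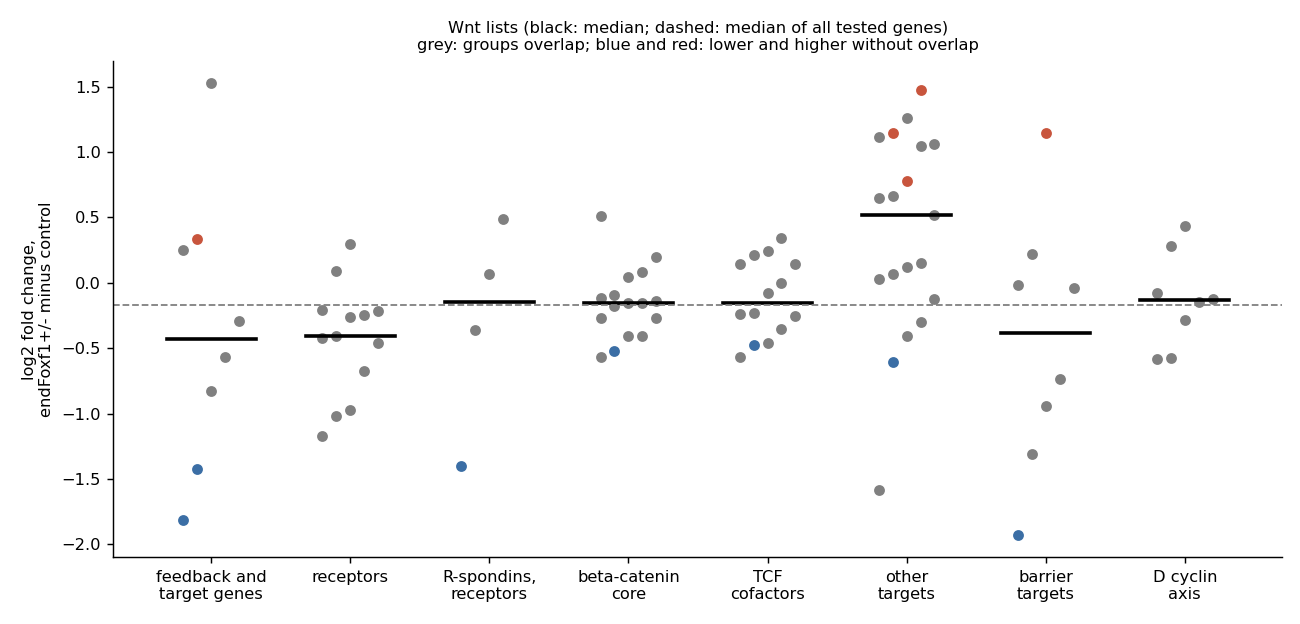
Log2 fold change (endFoxf1+/- minus control, log2(TPM + 1) scale) of each tested gene, for the feedback and target genes and 7 further Wnt lists. Black lines are list medians, the dashed line is the median of all tested genes (-0.17), and blue and red points are genes whose groups do not overlap. The list of other targets has a median of 0.52, and Nkd2, Nkd1, Rspo3 and Cldn5 are the lowest of the genes whose groups do not overlap.

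The genes whose log2(TPM + 1) ran most nearly parallel to each of 4 genes over the 8 libraries were found by the smallest SD of the difference. For Nkd1 these were Shroom3, Gnao1 and Pard6g (SD 0.11, 0.14 and 0.14), and for Axin2 they were Xdh, Dab2ip and Mmp28 (0.19, 0.19 and 0.20). For Nkd2 they were Ace3, Prss12 and Dusp23 (0.35, 0.39 and 0.39), and for Lef1 they were Limd1, Vps13a and Fancm (0.06, 0.10 and 0.11). None of the other feedback and target genes came as close. Nearest were Znrf3 to Lef1 (SD 0.41) and Tcf7 to Axin2 (0.44). The SD was 0.67 between Nkd1 and Nkd2, 0.63 between Nkd1 and Axin2 and 0.57 between Nkd2 and Axin2. These are descriptions over 8 libraries that share their normalization and the low endothelial content of H3.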

How the data were processed

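RNA-seq of 4 control and 4 endFoxf1+/- libraries was analysed, prepared per the labels from total RNA of sorted cells with the Nextera XT kit; all 8 files name the same run and lane. The authors deposited TPM, which they had scaled for transcript length and library total, for each gene symbol; the submitters' processing notes name TopHat, Cufflinks, Subread and DESeq2 with builds GRCm38 and mm10, and which tool made the TPM is not given in the sources used here. Read counts were not used here, so no counting error was computed and DESeq2 was not run. TPM were tested as log2(TPM + 1) in R 4.3.3 with limma 3.58.1 (trend, Benjamini-Hochberg over 14964 genes, threshold 0.05), after tests on simulated data, and single genes by exact permutation over 70 assignments (scipy 1.17.1). Gene positions are from GENCODE vM21, which held 95.6% of the symbols. Besides the 10 genes and Foxf1, the text names in each Wnt list the 3 genes of smallest p and any whose groups do not overlap, the nearest patterns and marker genes. Members and lists were chosen with earlier results of these data known. The alternatives were other pseudocounts, filters, scalings, weights, marker references and left-out libraries.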

Additional observations from a re-analysis of the deposited data

Results flagged for a closer look

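In 20 groups of 4 libraries (10 genes in 2 groups), a library was marked where its gap to the nearest other library on the log2(TPM + 1) scale exceeded, as a share of the range of the group, the 95% critical value of Dixon's test, which chance alone does in about 1 group in 20. This held for 4 groups. Nkd1 was at 6.08 TPM in endFoxf1+/- library H3, far below the other 3 endFoxf1+/- libraries. Rnf43 was at 0.252 TPM in control library C2, and Notum was listed at 0 in control library C4 and was at 1.43 TPM in endFoxf1+/- library H4. The last 3 concern genes that were under 1 TPM in nearly all libraries.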

How the results depend on the processing

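The number of genes called by limma at an adjusted p under 0.05 was 0 in the main analysis (836 at an unadjusted p under 0.05), 148 with array weights (2866 unadjusted), 2 with H3 and H4 left out (1782) and 1 with the endothelial covariate (1087); leaving out 1 library in turn gave 0 to 1 (416 to 1589), the 1 call arising without C1. None of the calls with array weights was one of the 10 genes; Nkd2 (-1.21, adjusted p = 0.0567) and Ccnd1 (0.73, adjusted p = 0.0624) came closest. Array weights gave H3 0.0643 and H4 0.178, against 1.17 to 3.85 for the others. The median over the 8 tested genes was -0.58 to -0.23 with 1 library left out, 0.04 with array weights and 0.06 without H3 and H4.

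Of the fold changes of single genes under the alternatives, 138 kept their direction and 4 turned: Axin2 to 0.021 and Tcf7 to 0.054 with array weights, and to 0.067 and 0.047 without H3 and H4. The other genes tested kept theirs under each alternative. The count of genes with no overlap, 3, became 2 to 4. Relative to endothelial markers it was 1, and became 2 with Pecam1 and Cdh5 or the marker median as reference, 4 without H3 and H4, and 1 to 2 with 1 library left out. The share of all genes with no overlap is given for the main setting only. Groups of fewer libraries are without overlap more often by chance, so a higher count there cannot be read as a clearer separation. Turned values on that scale were, without H3, -0.11 for Axin2, -0.12 for Tcf7 and -0.072 for Znrf3 (leave-one-out ranges -0.11 to 0.50, -0.12 to 0.82 and -0.072 to 1.23); without H3 and H4, -0.057 for Axin2, -0.077 for Tcf7, -0.22 for Znrf3, -0.16 for Rnf43 and -0.27 for Notum; and, with no pseudocount, -0.015 for Axin2. Ccnd1 relative to endothelial markers had an exact p of 0.0571 to 0.0857 when 1 control was left out, with no overlap, and 0.0667 without H3 and H4, the smallest possible. For each change the cause was not tested. No paired analysis was possible because every library has its own label number, shared by no library of the other group. Unknown depth limits all low values.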
